A study of Mus musculus with 48 samples.

Results

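Livers of male mice that received a high-fat diet (HFD) together with a mixture of dioxin-like compounds were compared with livers of male mice on a low-fat diet (LFD) given vehicle. The members were chosen by their labels alone: 6 libraries of exposed HFD males and 6 of vehicle LFD males, 12 of the 48 libraries of the study. Between these groups both the diet and the exposure differ. A further 6 libraries of vehicle HFD males gave the effect of the diet alone and 6 of exposed LFD males gave the effect of the mixture alone, both against the same vehicle LFD males. All mice were of the inbred strain C57BL/6J, and livers were taken after 12 weeks. The exposed groups received the mixture once a week: 10 ng/kg of the dioxin TCDD, 80 ng/kg of the furan PeCDF and 140 ng/kg of the biphenyl PCB126. The age of the animals is not stated in the labels. The question was whether the joint effect of diet and mixture equals the sum of the single effects, measured as differences of log2(TPM + 1).

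Dioxin-like compounds bind the aryl hydrocarbon receptor (AhR), which enters the nucleus, pairs with ARNT and binds DNA at a short core motif near genes of xenobiotic metabolism, above all those of the Cyp1 family. In the liver, sustained AhR activation is known to go with lipid accumulation. A high-fat diet by itself loads hepatocytes with triglyceride, raises fatty acid oxidation through the receptor PPARα and lowers sterol synthesis through SREBP2. The rodent liver is also strongly sex-biased, under control of the pattern of growth hormone secretion, and many male-biased genes are lost in obesity or liver injury.

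The deposited values were TPM, a relative abundance corrected for gene length that keeps no sequencing depth, so the depth behind each value is unknown and no counting interval was computed. The 12 libraries held 13180 to 14365 genes at 1 TPM or more. Hepatocyte markers fitted the labelled tissue, with Alb, the albumin gene, at 38100, 48300 and 58800 TPM (lowest, median and highest library) in exposed HFD males and 59600, 77600 and 109000 TPM in vehicle LFD males. The summed TPM of 19 skeletal muscle genes was 26200 in replicate 6 of the exposed HFD males and 28.2 to 82.0 in the other 5. It was 854 and 398 in replicates 4 and 5 of the vehicle LFD males and 27.8 to 31.8 in the other 4. Among the exposed LFD males, which enter the mixture effect, adrenal cortex genes summed to 110 TPM in replicate 6. In the other libraries of that group they summed to 4.51 to 11.7 TPM. The adipocyte list of 8 genes, of which 4 passed the filter with 1 higher and 1 lower, summed to 1630, 1710 and 2310 TPM in exposed HFD males and 971, 1390 and 2150 TPM in vehicle LFD males. Its members Adipoq, Lep, Plin1 and Retn did not exceed 3.70 TPM in any of the 12 libraries, while its member Cfd was higher in exposed HFD males. In bulk tissue, fewer cells of a type and less RNA per cell cannot be told apart. No batch is labelled, and every p-value here reflects only how far libraries of one group differ. The labels do not say whether both diets ran in one cohort.

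The combined treatment changed a large part of the transcriptome. By limma at a Benjamini-Hochberg adjusted p under 0.05, 5122 of 15820 genes were higher (32.4%) and 1219 lower (7.71%) in exposed HFD males than in vehicle LFD males, 40.1% in all. A trimmed-mean scaling, which moves the median of all genes by -0.149 on the log2 scale, called 2619 genes higher and 2634 lower (16.6% each, 33.2% in all). The share of calls that were higher was thus 80.8% as deposited and 49.9% with scaling, and changes of about 0.15 depend on the scale. The median log2 change of all genes was 0.15 without scaling and every list median below is to be read against it. For 16.2% of all genes the 6 libraries of one group lay wholly beyond those of the other, 2136 with the exposed HFD males above and 431 with them below. Genes named below for a large joint change or a small p were chosen on these same values. The lack of overlap reported for them was thus favoured by the choice.

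The single effects were of very unequal size. The diet alone called 4043 genes higher (25.6%) and 920 lower (5.82%), 31.4% in all. With scaling it called 2070 higher (13.1%) and 1823 lower (11.5%), 24.6% in all. By contrast, the mixture alone called 6 higher and 0 lower (0.0379%), with 830 genes at an unadjusted p under 0.05. The mixture alone called 10 without replicate 5 of the exposed LFD males and 12 without replicate 2 of the vehicle LFD males. It called 4 without replicate 6 of the exposed LFD males, which held the adrenal transcripts. Within HFD males, exposed against vehicle, the mixture called 11 genes higher (0.0695%) and 4 lower (0.0253%), 0.0948% in all. That count of 15 was 61 without replicate 2 of the exposed HFD males, 34 without replicate 6, and 6 and 5 without replicates 3 and 5 of that group. It was 6 without replicate 3 of the vehicle HFD males. Because the single effects share their vehicle LFD libraries with each other and with the joint effect, their values are set side by side and no correlation or overlap between them is drawn. The departure of the joint effect from the sum, which equals the mixture effect on the HFD minus that on the LFD, was called for 1 gene (0.00632%), Cyp1a1, which had a negative departure, with 1158 genes at an unadjusted p under 0.05. The median gene had a standard error of 0.17 and an unadjusted 95% interval of ±0.35 for the departure. A call after adjustment over all genes needs a larger departure than that interval.

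Cyp1a1 and Cyp1a2 encode P450 enzymes that serve as the classic readout of AhR activation. With both treatments each was higher than in vehicle LFD males, while with the diet alone each was lower. Both lie on chromosome 9 of GRCm38 in GENCODE M21, Cyp1a1 at chr9:57687928-57703824 on the plus strand and Cyp1a2 at chr9:57676937-57683703 on the minus strand, and both are protein coding. The 250 bases before their RefSeq starts on GRCm38.p6 are shown because the AhR core motif, GCGTG, was searched there on both strands. Capitals mark the match, and each window is written on its gene's own strand.
Cyp1a1 promoter, chr9:57697363-57697612, plus strand: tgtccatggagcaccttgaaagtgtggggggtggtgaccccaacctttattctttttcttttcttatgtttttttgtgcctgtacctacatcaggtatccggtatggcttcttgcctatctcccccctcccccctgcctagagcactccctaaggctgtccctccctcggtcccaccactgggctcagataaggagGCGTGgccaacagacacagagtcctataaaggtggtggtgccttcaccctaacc
Cyp1a2 promoter, chr9:57683656-57683905, minus strand: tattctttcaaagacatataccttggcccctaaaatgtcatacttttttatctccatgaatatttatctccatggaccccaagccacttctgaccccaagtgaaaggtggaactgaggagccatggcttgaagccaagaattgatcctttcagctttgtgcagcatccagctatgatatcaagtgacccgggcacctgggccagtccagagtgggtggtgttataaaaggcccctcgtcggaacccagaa
The Cyp1a1 window held 1 match, starting 54 bases before the transcription start, and the Cyp1a2 window held 0. Of the 21 tested genes of the AhR target list, 17 had a RefSeq window and 5 of these held the motif (29.4%), against 4994 of 10436 windows of all tested genes (47.9%). These are matches of letters in a short window and say nothing about binding, and sites farther upstream were not searched.

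Cyp1a1 was at 2.22, 3.78 and 8.59 TPM in exposed HFD males (lowest, median and highest), against 1.19, 1.83 and 2.17 TPM in vehicle LFD males. It was at 0.534, 0.864 and 1.14 TPM in vehicle HFD males and at 86.1, 137 and 195 TPM in exposed LFD males. The 6 exposed HFD libraries thus lay just above all vehicle LFD libraries and far below all libraries with the mixture alone. The joint log2 change was 0.95 (SE 0.20, limma adjusted p = 0.000223). The diet alone gave -0.57 (adjusted p = 0.0298) and the mixture alone 5.60 (adjusted p = 1.03e-24), a sum of 5.03. The departure was -4.08 (SE 0.29, 95% interval -4.66 to -3.49, limma adjusted p = 1.51e-13). In units of TPM, the group means differed by 2.93 in the joint comparison, while the single differences added up to 136.

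Cyp1a2 was at 1350, 1570 and 2080 TPM in exposed HFD males, against 549, 657 and 774 TPM in vehicle LFD males. It was at 230, 336 and 422 TPM in vehicle HFD males and at 2590, 3100 and 4010 TPM in exposed LFD males, so none of the 4 groups overlapped another. The joint log2 change was 1.28 (SE 0.13, limma adjusted p = 9.75e-11), and the single effects of -1.04 for the diet and 2.24 for the mixture summed to 1.19. The departure was 0.09 (SE 0.18, 95% interval -0.28 to 0.46, limma adjusted p = 0.951). On the log scale the joint effect of Cyp1a2 therefore lay near the sum, while in TPM the joint difference of group means was 975 and the single differences added up to 2160. The departure interval of Cyp1a1 lay wholly below that of Cyp1a2, and the difference between the genes was not tested.

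**Figure D1:**
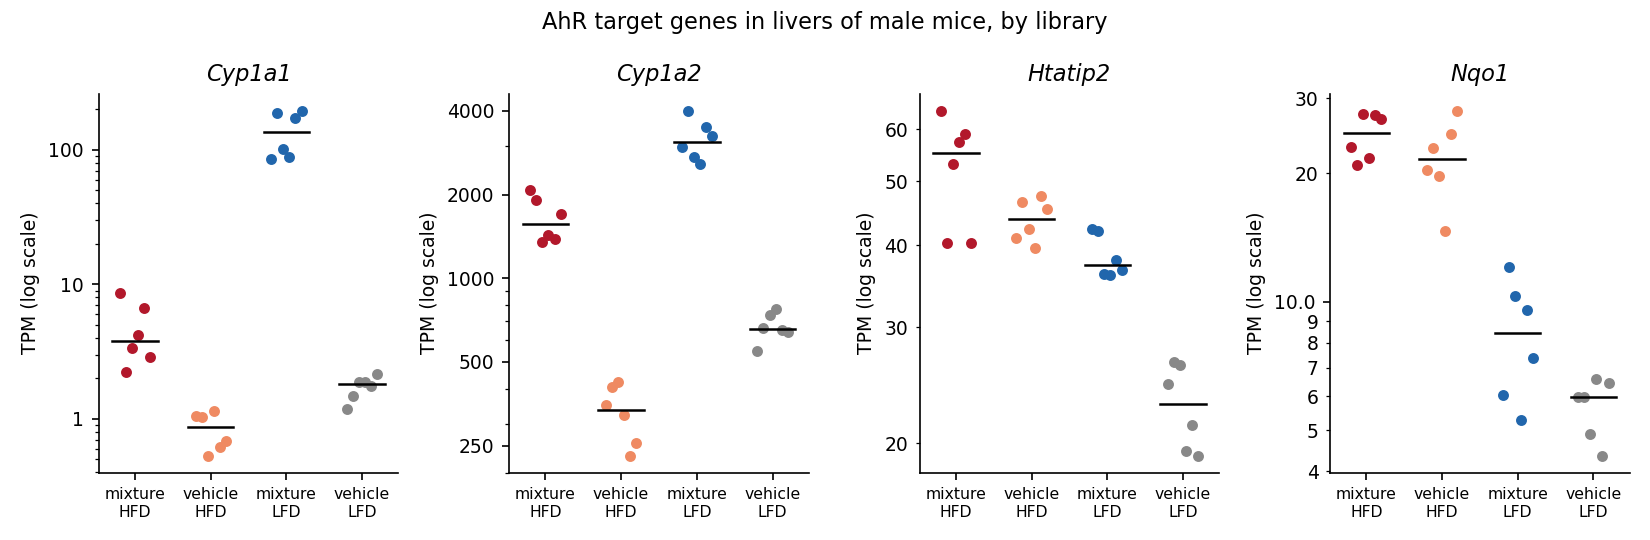
TPM of 4 AhR target genes on log axes, by library, in exposed HFD, vehicle HFD, exposed LFD and vehicle LFD males (6 points each, line at the median). Cyp1a1 is at 2.22 to 8.59 TPM with both treatments and at 86.1 to 195 TPM with the mixture alone, while for Htatip2 and Nqo1 the exposed HFD libraries lie above all vehicle LFD libraries.

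Of the 21 tested AhR targets 14 rose and 0 fell in the joint comparison, with a median log2 change of 0.58, against 0.15 over all genes. The median was 0.38 with the diet alone and 0.18 with the mixture alone, where 9 rose and 2 fell with the diet and 5 rose with the mixture. The 2 that fell with the diet were the Cyp1a genes. Htatip2, a dehydrogenase-like gene, was at 40.3, 55.3 and 64.0 TPM in exposed HFD males and 19.1, 23.0 and 26.5 TPM in vehicle LFD males, with no overlap. Its joint log2 change was 1.15 (SE 0.10, limma adjusted p = 1.00e-12), with single effects of 0.91 and 0.74 and a departure of -0.50 (adjusted p = 0.348). Nqo1, a quinone reductase that is also a target of the oxidative stress factor Nrf2, was at 20.9, 24.9 and 27.5 TPM in exposed HFD males, against 4.36, 5.97 and 6.6 TPM in vehicle LFD males. It rose by 1.93 (SE 0.14, limma adjusted p = 4.80e-14), and the diet alone gave 1.75 and the mixture alone 0.45.

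Other AhR targets split into several patterns. Ugt1a9, a glucuronosyltransferase gene that shares exons with its Ugt1a neighbours, rose by 1.72 (SE 0.27, adjusted p = 1.48e-06) with single effects of 0.62 and 0.98. Pcp4l1 rose by 1.64 (SE 0.28, adjusted p = 8.45e-06) with single effects of 0.77 and 0.95. Cyb5a, the electron donor cytochrome b5, was at 900 to 1250 TPM in exposed HFD males and 494 to 712 TPM in vehicle LFD males, a rise of 0.85 (SE 0.09, adjusted p = 1.55e-10). In these genes each single effect was positive, but both passed only in Cyb5a. For Ugt1a9 neither passed (limma adjusted p = 0.072 for the diet and 0.445 for the mixture). For Pcp4l1 the diet effect passed (limma adjusted p = 0.0334) and the mixture effect did not (adjusted p = 0.521). Slc46a3, a lysosomal transporter gene, had single effects of opposite sign. The diet effect of -0.34 did not pass (limma adjusted p = 0.0893), while the mixture effect of 0.81 did (adjusted p = 0.0115). The joint change of Slc46a3, 0.17, did not pass (SE 0.15, adjusted p = 0.403). Its range of 40.4 to 62.5 TPM in exposed HFD males overlapped the 38.8 to 63.7 TPM of vehicle LFD males. Among further members, Cyp1b1 (0.58), Nfe2l2, which encodes Nrf2 (0.57), Ugdh (0.94) and Gsta1 (3.98) rose by limma. Tiparp, an AhR feedback gene (0.38, adjusted p = 0.169), Xdh (0.02), Lman2l (0.02), Serpinb9 (0.22), Inmt (0.25) and Ugt1a6a (0.16) did not pass. The calls of Ugt1a6b (0.42) and Ugt1a7c (0.36) ended with scaling (limma adjusted p = 0.115 and 0.0994).

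**Figure D2:**
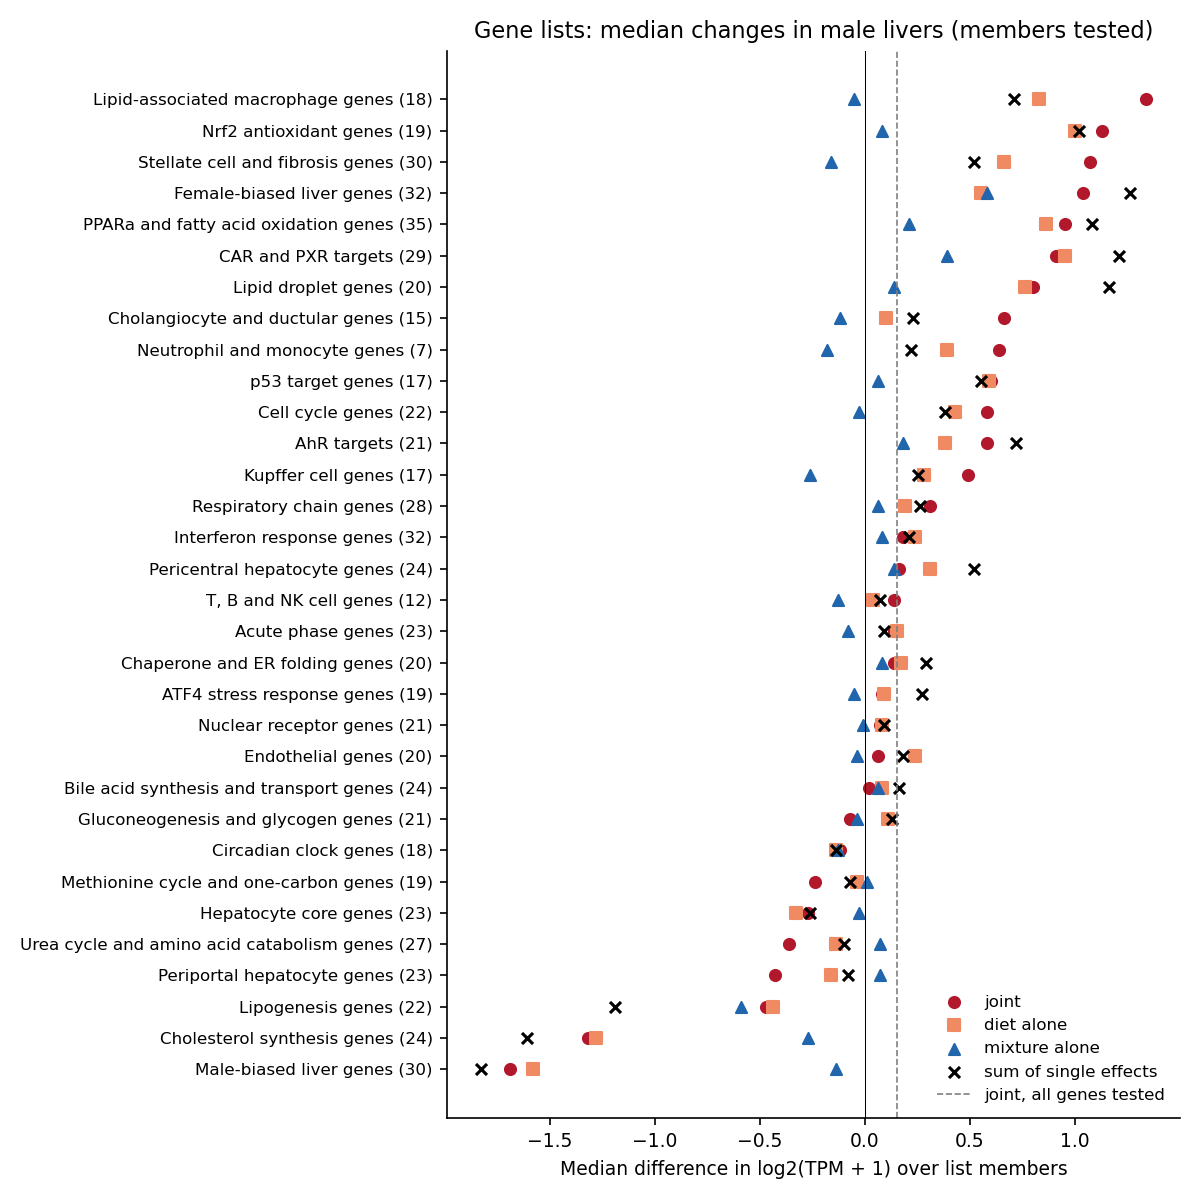
Median difference in log2(TPM + 1) over the tested members of each gene list (number in brackets) for the joint effect, the diet alone, the mixture alone and the sum of single effects per gene. Joint medians run from -1.69 for male-biased genes to 1.34 for lipid-associated macrophage genes, and the dashed line marks the median of all genes, 0.15.

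Genes of drug metabolism under the receptors CAR and PXR, which respond to many foreign compounds and to bile acids, were mostly higher, 20 of 29 against 0 lower (median 0.91). The diet alone had a median of 0.95 and the mixture alone one of 0.39, so the joint median lay under the median of the sums, 1.21. With scaling 18 rose and 2 fell. Cyp2b9, a P450 that is female-biased in mice, had the largest joint rise of the named genes. It was at 67.9, 132 and 233 TPM in exposed HFD males, against 0.922, 1.42 and 1.95 TPM in vehicle LFD males, a log2 rise of 5.73 (SE 0.38; limma, adjusted p = 5.14e-15). The diet alone gave 5.47 and the mixture alone 1.39, a sum of 6.87. The groups lay far apart, while the vehicle HFD libraries ran from 12.5 to 387 TPM around the exposed HFD ones. Abcc3, which exports conjugated bile acids and drugs, was at 169, 233 and 264 TPM in exposed HFD males and 30, 55.8 and 90.1 TPM in vehicle LFD males (2.03, SE 0.18, adjusted p = 2.23e-12). Its single effects of 2.06 and 0.78 added up to more than the joint change, with a departure of -0.81 that did not pass (adjusted p = 0.393). Cyp3a11, the main drug-metabolizing Cyp3a enzyme, rose by 2.72 and Aldh1a1, a retinaldehyde dehydrogenase, by 1.39. Reads of Cyp2b, Cyp3a, Cyp4a and Ugt1a genes may be shared with close paralogs, so single members are uncertain.

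Antioxidant genes under Nrf2 had 16 of 19 members higher and 2 lower (median 1.13), and the diet alone likewise called 16 and 2. Gsta1, a glutathione transferase, was at 4.36, 26.7 and 34.4 TPM in exposed HFD males, against 0, 0.237 and 0.590 TPM in vehicle LFD males (3.98, SE 0.34, limma adjusted p = 1.46e-12). Cbr3, a carbonyl reductase, was at 3.33, 13.3 and 21.3 TPM in exposed HFD males and 0.603, 1.11 and 1.63 TPM in vehicle LFD males (2.5, SE 0.23, adjusted p = 1.85e-11). Neither gene overlapped between the groups. Ephx1, the microsomal epoxide hydrolase, rose by 1.61 (SE 0.12, adjusted p = 7.95e-14).

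Of 20 lipid droplet genes 18 rose and 0 fell (median 0.80), although with scaling 11 rose and 1 fell. Cidec, which fuses lipid droplets, was at 81.3, 245 and 325 TPM in exposed HFD males, against 2.70, 7.65 and 13.1 TPM in vehicle LFD males, a change of 4.77 (SE 0.38, limma adjusted p = 3.13e-13). Cidea, its relative from brown fat, was at 50.9, 129 and 160 TPM in exposed HFD males and 0.126, 0.903 and 4.12 TPM in vehicle LFD males (5.68, SE 0.54, adjusted p = 2.39e-11). Mogat1, which makes diacylglycerol, rose by 3.39 (SE 0.28) and Fitm2, a droplet-forming protein of the endoplasmic reticulum, by 1.18 (SE 0.12). In all 4 genes every exposed HFD library lay above every vehicle LFD library, which the rules for naming genes favoured. The mixture alone gave 0.08 for Cidec and -0.19 for Cidea, and neither passed. Cfd, the adipsin gene of adipocytes, was among the largest rises at 19.2, 42.2 and 114 TPM in exposed HFD males and 0.317, 1.07 and 11.9 TPM in vehicle LFD males (3.97, SE 0.77, adjusted p = 5.96e-05), beside the adipocyte list given above, whose part in the result was not tested.

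Of 35 genes of PPARα and fatty acid oxidation 31 rose and 1 fell (median 0.95), and 30 and 1 with scaling. Cd36, a fatty acid uptake receptor, was at 185, 211 and 271 TPM in exposed HFD males, against 13.7, 22.0 and 30.8 TPM in vehicle LFD males (3.26, SE 0.23, limma adjusted p = 2.07e-14). Cyp4a14, a fatty acid hydroxylase, was at 98.5, 273 and 353 TPM in exposed HFD males and 5.31, 8.5 and 84.7 TPM in vehicle LFD males (4.10, SE 0.46, adjusted p = 1.17e-09). For Cyp4a14 the diet alone gave 3.97 and the mixture alone 1.90 without passing (adjusted p = 0.224), a sum of 5.87 and a departure of -1.77 (adjusted p = 0.494). Acot2, a mitochondrial thioesterase, rose by 3.05, Acadm, the medium-chain dehydrogenase of β-oxidation, by 1.15 and Hsd17b4, a peroxisomal β-oxidation enzyme, by 0.95. The receptor gene Pparg, which is low in normal liver and drives fat storage, was at 14.6, 25.6 and 26.5 TPM in exposed HFD males and 2.87, 6.29 and 10.8 TPM in vehicle LFD males (1.82, SE 0.21, adjusted p = 4.65e-09).

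Of 24 cholesterol synthesis genes 20 fell and 0 rose (median -1.32), and 21 were lower with scaling. Sqle, squalene epoxidase, was at 1.62, 4.30 and 8.44 TPM in exposed HFD males, against 17.6, 41.4 and 65.1 TPM in vehicle LFD males (-2.82, SE 0.37, limma adjusted p = 4.17e-08). Its diet effect alone was -3.47 and its mixture effect -0.48, so that the joint fall was smaller than the sum of -3.95, with a departure of 1.13 that did not pass (adjusted p = 0.632). Tm7sf2 (-1.42), Pmvk (-1.59) and the sterol carrier gene Stard4 (-1.30) fell as well. Of 22 lipogenesis genes 12 fell and 3 rose (median -0.47), and 13 fell and 0 rose with scaling. Acss2, which activates acetate, was at 25.9, 41.7 and 47.9 TPM in exposed HFD males and 63.4, 162 and 220 TPM in vehicle LFD males (-1.87, SE 0.30, adjusted p = 2.94e-06). Acly, the ATP citrate lyase, spread widely, with 50.8, 133 and 261 TPM in exposed HFD males and 183, 561 and 965 TPM in vehicle LFD males, and the groups overlapped (-1.92, SE 0.42, adjusted p = 0.000246). The mixture alone had a median of -0.59 over the lipogenesis list with 0 called, and the sums had a median of -1.19. Without replicate 6 of the exposed HFD males, replicate 3 of the vehicle LFD females and replicate 3 of the exposed LFD females, all with muscle transcripts, 7 lipogenesis genes fell and 3 rose.

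Of 30 male-biased liver genes 29 fell and 0 rose (median -1.69), 30 with scaling. Hsd3b5, a male-specific steroid dehydrogenase of the mouse liver, was at 0.961, 1.92 and 9.63 TPM in exposed HFD males, against 292, 396 and 458 TPM in vehicle LFD males, a change of -6.62 (SE 0.55, limma adjusted p = 1.00e-12). Serpina1e, an α1-antitrypsin paralog, was at 41.5, 92.8 and 228 TPM in exposed HFD males and 3980, 6410 and 10300 TPM in vehicle LFD males (-6.20, SE 0.55, adjusted p = 4.20e-12). No library of one group reached the range of the other in either gene. Moxd1, a monooxygenase-like gene, was at 0, 0.0788 and 0.318 TPM in exposed HFD males and 6.79, 54.7 and 201 TPM in vehicle LFD males (-5.67, SE 0.56, adjusted p = 5.89e-11). Mup7, which encodes a major urinary protein, was at 23.7, 233 and 1310 TPM in exposed HFD males and 2100, 4700 and 8010 TPM in vehicle LFD males (-4.95, SE 0.69, adjusted p = 1.78e-07), and Mup11 fell by 3.59. Mup and Serpina1 genes are near-identical copies, so how their shared reads were split is uncertain. C8b, a complement component (-3.38), Susd4, a complement regulator (-2.16), Selenbp2 (-3.33) and the organic anion transporter gene Slco1a1 (-3.39) fell without overlap. The diet alone had a median of -1.58 over the list and the mixture alone -0.14 with 0 called, and the median departure was 0.00.

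Of 32 female-biased liver genes 21 rose and 0 fell (median 1.04). Cyp2a22 was at 22.5, 36.3 and 46.5 TPM in exposed HFD males, against 0.509, 1.08 and 2.13 TPM in vehicle LFD males (4.04, SE 0.31, limma adjusted p = 7.95e-14). Slc22a27, an organic anion transporter gene, rose by 3.37 (SE 0.30) and Rtn4, a reticulon of the endoplasmic reticulum, by 1.37 (SE 0.10). For this list the median was 0.55 with the diet alone and 0.58 with the mixture alone, while 16 genes rose with the diet and 1 with the mixture.

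**Figure D3:**
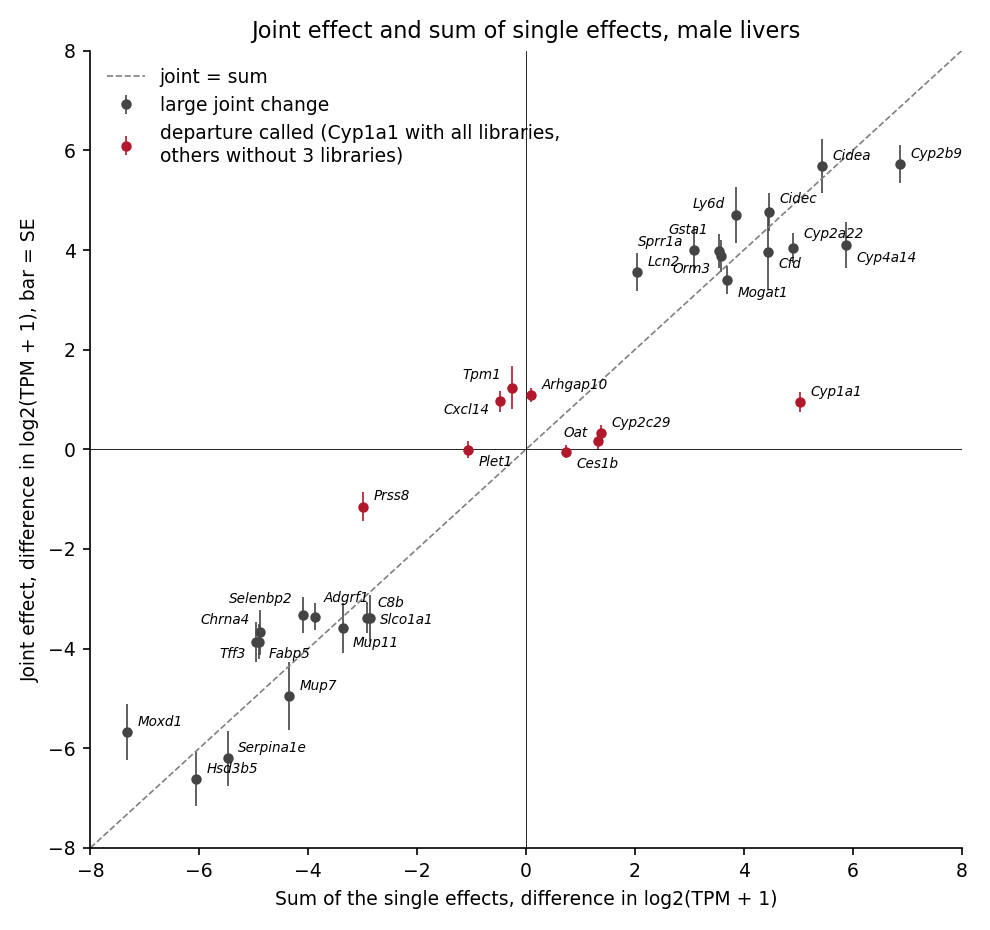
Joint effect (bars are 1 SE) against the sum of the single effects, both as differences in log2(TPM + 1), for genes named for a large joint change and genes with a called departure, all values from the 48 libraries. Cyp1a1 lies 4.08 below the line on which joint effect and sum are equal, and Hsd3b5, at a joint effect of -6.62 and a sum of -6.06, lies near it.

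Genes of amino acid breakdown were lower, with a joint median below that of the sums, -0.10. Of 27 genes of the urea cycle and of amino acid catabolism, 15 fell and 1 rose (median -0.36), and 20 fell and 0 rose with scaling. The diet alone had a median of -0.14 and the mixture alone 0.07. The departure was negative in 27 of 27 members (median -0.37), with 0 called, against a positive departure in 56.7% of all genes. It was also negative in 22 of 24 bile acid genes, 25 of 29 CAR and PXR targets and 20 of 24 pericentral genes. The same held for 28 of 35 PPARα and fatty acid oxidation genes, while 19 of 24 cholesterol synthesis genes had a positive departure. Members of a list are measured in the same livers and are not independent. The mean log2(TPM + 1) of the list was 8.05 to 8.51 in exposed HFD males and 8.56 to 8.88 in vehicle LFD males. It was 8.55 to 8.66 in vehicle HFD males and 8.57 to 9.09 in exposed LFD males, so that the exposed HFD libraries lay below all others. Beside this, hepatocyte core genes summed to 107000 to 135000 TPM in exposed HFD males and 150000 to 194000 TPM in vehicle LFD males, with 17 of 23 lower, and the part of this in the result was not tested.

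Cps1, which fixes ammonia in the first step of the urea cycle, was at 595, 672 and 1000 TPM in exposed HFD males, against 1360, 2240 and 2730 TPM in vehicle LFD males, with no overlap. It fell by 1.45 (SE 0.18, limma adjusted p = 1.88e-08), while the diet alone gave -0.76 and the mixture alone -0.08. Ass1, the next but one enzyme of the cycle, was at 1460, 1730 and 2090 TPM in exposed HFD males, against 2880, 3040 and 3680 TPM in vehicle LFD males (-0.87, SE 0.13, adjusted p = 8.51e-07). The sum of its single effects was -0.26, and the departure of -0.62 did not pass (adjusted p = 0.392). Haao of tryptophan breakdown (-0.44) fell too. Of 19 methionine cycle and one-carbon genes 7 fell and 2 rose, and 14 fell and 0 rose with scaling. Gnmt, which uses up S-adenosylmethionine, was at 1380, 1910 and 2340 TPM in exposed HFD males and 2430, 3070 and 3430 TPM in vehicle LFD males (-0.70, SE 0.13, adjusted p = 2.53e-05), with single effects of -0.29 and 0.12. Cbs (-0.82), Aldh1l1 (-0.67) and Pemt (-0.39) fell. Of 24 bile acid genes 8 fell and 5 rose, and 9 fell and 2 rose with scaling. Both lists are to be read against all genes, of which 7.71% fell and 32.4% rose, or 16.6% each with scaling. Slc10a1, the main bile acid uptake carrier, was at 423, 501 and 545 TPM in exposed HFD males and 975, 1240 and 1590 TPM in vehicle LFD males (-1.32, SE 0.10, adjusted p = 3.95e-14). Cyp7b1, an oxysterol hydroxylase, fell by 2.34, and Abcb4, the phospholipid flippase of the bile canaliculus, rose by 0.87.

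Genes of stellate cells and matrix, of macrophages that take up lipid and of the bile duct lineage were higher, with joint medians above those of the sums (0.52, 0.71 and 0.23). Of 30 stellate cell and fibrosis genes 26 rose and 0 fell (median 1.07), and 25 rose with scaling. The diet alone had a median of 0.66 with 25 risen, and the mixture alone -0.16 with 0 called. The departure was positive in 29 of 30 members (median 0.53), with 0 called, against 56.7% of all genes. Lists of other kinds had mostly positive departures too, with 21 of 22 cell cycle genes and 19 of 22 lipogenesis genes. The mean log2(TPM + 1) of the list was 3.57 to 4.36 in exposed HFD males and 2.58 to 2.94 in vehicle LFD males, against 3.40 to 3.61 in vehicle HFD males and 2.43 to 2.74 in exposed LFD males, so that it overlapped the vehicle HFD libraries only. Col1a1, a chain of type I collagen, was at 22.2, 44.7 and 90.8 TPM in exposed HFD males, against 3.00, 5.41 and 6.31 TPM in vehicle LFD males (2.88, SE 0.28, limma adjusted p = 3.77e-11). Its single effects were 2.20 for the diet and -0.27 for the mixture, and the departure of 0.95 did not pass (adjusted p = 0.549). Col3a1 (2.29), Col1a2 (2.12) and Timp1, an inhibitor of matrix proteases (2.28), rose as well. The stellate cell marker Lrat was at 10.1, 18.2 and 28.4 TPM in exposed HFD males and 5.42, 10.2 and 14.1 TPM in vehicle LFD males, while Reln overlapped almost wholly and did not pass (0.28, adjusted p = 0.0878).

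Of 18 genes of lipid-associated macrophages 16 rose and 1 fell (median 1.34). Gpnmb, a lysosomal glycoprotein of lipid-laden macrophages, was at 0.949, 6.81 and 13.6 TPM in exposed HFD males, against 0.0508, 0.127 and 0.427 TPM in vehicle LFD males (2.5, SE 0.28, limma adjusted p = 1.84e-09). Cd63, a lysosomal tetraspanin, was at 40.3, 88.8 and 171 TPM in exposed HFD males and 12.2, 16.3 and 21.7 TPM in vehicle LFD males (2.42, SE 0.29, adjusted p = 6.33e-09). Its single effects were 1.28 and -0.14. The chemokine receptor gene Ccr2, of monocytes newly entering tissue, rose by 1.23 (SE 0.12). The member that fell was Fabp5, a fatty acid binding protein, at 5.31, 9.76 and 18.3 TPM in exposed HFD males and 38.8, 179 and 340 TPM in vehicle LFD males (-3.86, SE 0.35, adjusted p = 1.06e-11). The list mean was 4.09 to 5.18 in exposed HFD males and 3.39 to 3.72 in vehicle LFD males, and the lowest exposed HFD value belongs to replicate 6. Resident Kupffer cell genes had 7 of 17 higher and 1 lower, or 4 and 2 with scaling. Over all genes 32.4% were higher and 7.71% lower, or 16.6% each with scaling. Of the resident Kupffer cell markers, Clec4f (0.12, adjusted p = 0.634), Vsig4 (0.18, adjusted p = 0.528) and Timd4 (-0.45, adjusted p = 0.174) did not pass. The marker Cd5l rose (0.75, limma adjusted p = 0.0121), a call that ended with scaling (limma adjusted p = 0.0685). C1qa, a complement gene shared by macrophages, rose by 0.76.

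Of 15 cholangiocyte and ductular genes 10 rose and 0 fell (median 0.66), with 4 risen in the diet alone and 0 called in the mixture alone. The departure was positive in 15 of 15 members (median 0.40), with 0 called, against 56.7% of all genes. Spp1, the osteopontin gene, which both bile duct cells and macrophages express, was at 60.0, 227 and 500 TPM in exposed HFD males, against 38.9, 57.8 and 85.2 TPM in vehicle LFD males. The groups overlapped, and the joint log2 change was 1.74 (SE 0.28, limma adjusted p = 3.41e-06) with single effects of 0.81 and -0.18. Krt8 (1.28) and Krt18 (0.66), keratins of hepatocytes and duct cells, rose. The defining duct genes were low: Krt19 was at 3.41 to 7.04 TPM in exposed HFD males and 1.42 to 9.47 TPM in vehicle LFD males and did not pass (0.50, adjusted p = 0.0951), nor did Sox9 (0.30, adjusted p = 0.202). Epcam was at 4.28, 10.6 and 12.5 TPM in exposed HFD males and 2.51, 4.76 and 6.89 TPM in vehicle LFD males (0.79, SE 0.26, adjusted p = 0.0123), and with scaling the call ended (adjusted p = 0.0534). Sprr1a, a cornified envelope protein gene, was at 3.17, 31.6 and 59.9 TPM in exposed HFD males and 0, 0.556 and 1.07 TPM in vehicle LFD males (4.00, SE 0.46, adjusted p = 2.17e-09). Ly6d, a GPI-anchored surface protein gene, was at 19.9, 120 and 217 TPM in exposed HFD males and 0.429, 2.98 and 14.2 TPM in vehicle LFD males (4.71, SE 0.56, adjusted p = 6.41e-09).

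**Figure D4:**
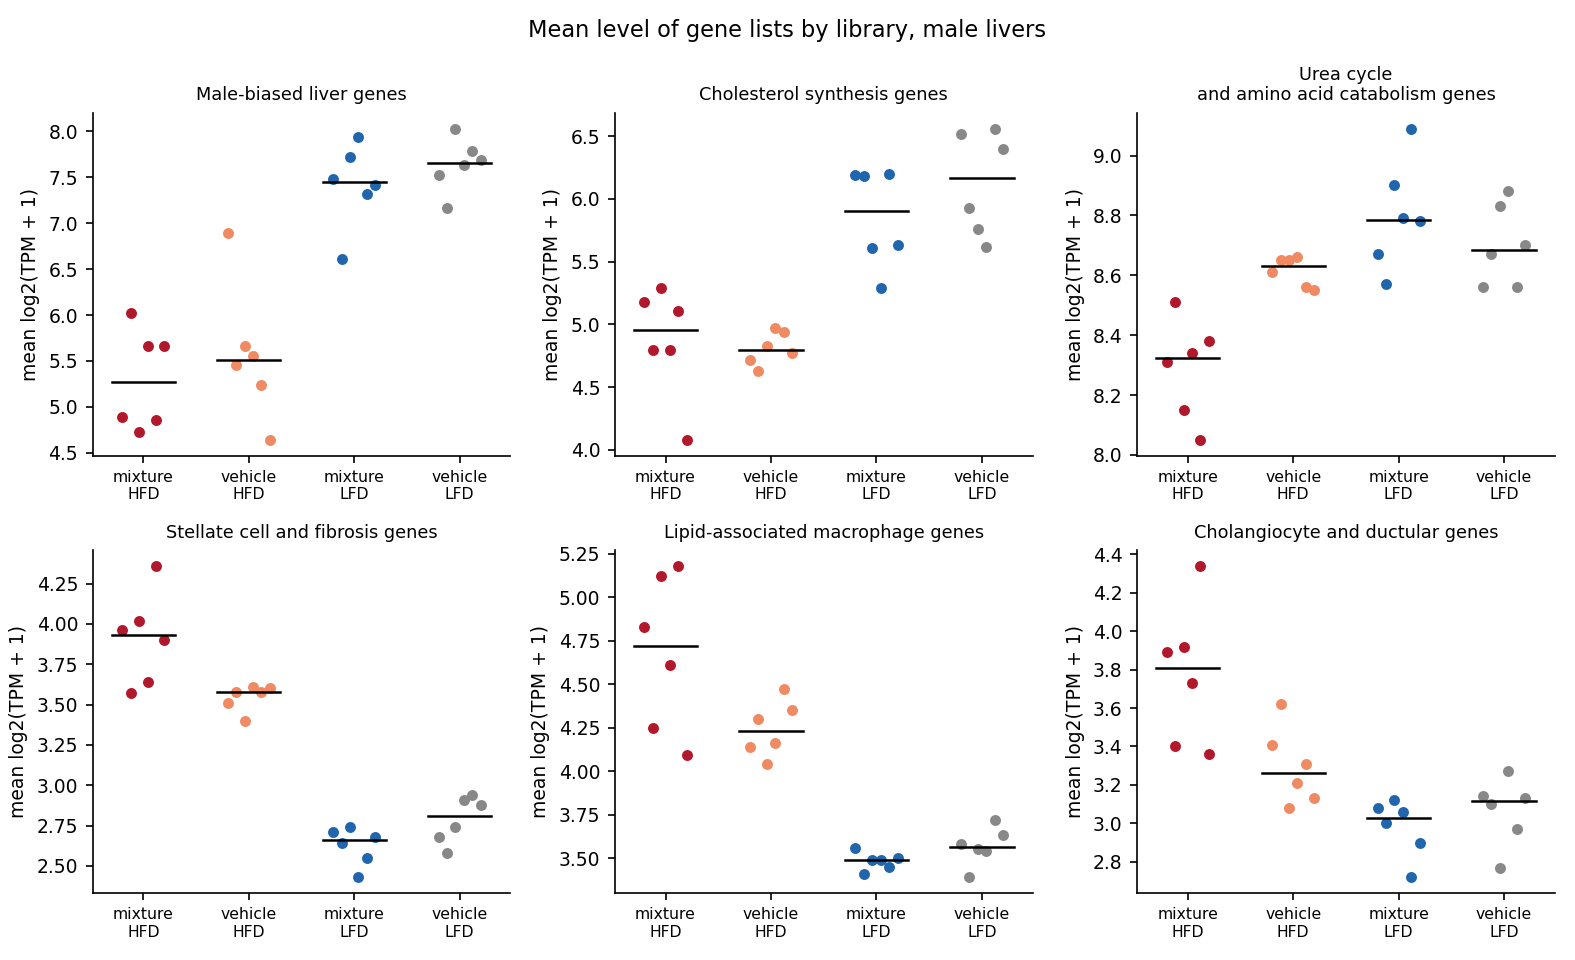
Mean log2(TPM + 1) over the members of 6 gene lists in each library of exposed HFD, vehicle HFD, exposed LFD and vehicle LFD males (6 points each, line at the median). The urea cycle and amino acid catabolism list is at 8.05 to 8.51 with both treatments and at 8.55 or more in all other libraries, while the stellate cell list is at 3.57 to 4.36 with both treatments and overlaps the vehicle HFD libraries at 3.40 to 3.61.

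The acute phase list moved in both directions, with 9 of 23 genes higher and 7 lower. Lcn2, the iron-siderophore binding lipocalin, was at 33.3, 60.2 and 115 TPM in exposed HFD males, against 1.58, 4.10 and 8.86 TPM in vehicle LFD males (3.56, SE 0.39, limma adjusted p = 8.05e-10). Its single effects were 2.67 and -0.62, with a departure of 1.52 that did not pass (adjusted p = 0.494). Orm3, an α1-acid glycoprotein gene, rose by 3.88, whereas the fibrinogen genes Fga (-0.77), Fgb (-0.79) and Fgg (-0.63) fell. Of 22 cell cycle genes 17 rose and 0 fell (median 0.58), and the diet alone called 11. The members with the smallest p were the replication genes Mcm4 (1.08), Mcm2 (1.18), Rrm1 (0.58) and Pcna (0.49). Of 17 p53 targets 12 rose and 0 fell. Cdkn1a, which encodes the cell cycle inhibitor p21, was at 9.25, 25.5 and 38.8 TPM in exposed HFD males and 2.43, 3.62 and 6.19 TPM in vehicle LFD males (2.17, SE 0.32, adjusted p = 6.40e-07), and the death receptor gene Fas rose by 0.98. Respiratory chain genes had 25 of 28 higher (median 0.31), and 6 with scaling, where 16.6% of all genes were higher. Several lists had few calls or calls in both directions, to be read against 32.4% higher and 7.71% lower over all genes. Of 20 endothelial genes 7 were higher and 1 lower, or 5 and 4 with scaling. Of 19 genes of the ATF4 stress response 5 were higher and 3 lower, or 3 and 5 with scaling. Of 21 genes of gluconeogenesis and glycogen 3 were higher and 4 lower, or 3 and 7 with scaling. Of 20 chaperones 2 were higher and 1 lower, or 2 and 2 with scaling, and of 18 clock genes 0 were higher and 3 lower, or 0 and 5 with scaling. Of 12 lymphocyte genes 1 was higher and 1 lower.

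With all libraries and no other change of setting, Cyp1a1 was the only departure called. When the 3 libraries left out for the lipogenesis genes were left out here, 7 genes had a positive departure and 5 a negative one by limma. Prss8, a membrane-anchored serine protease of epithelia, was at 1.52, 7.37 and 13.3 TPM in exposed HFD males, against 8.70, 15.0 and 22.1 TPM in vehicle LFD males. It was at 1.57, 2.10 and 3.27 TPM in vehicle HFD males and at 5.44, 8.28 and 11.3 TPM in exposed LFD males. Its departure was 1.84 with all libraries (SE 0.41, limma adjusted p = 0.113) and 2.12 without the 3 (adjusted p = 0.00705). Cyp2c29, a P450 of pericentral hepatocytes, was at 304, 453 and 749 TPM in exposed HFD males and 247, 387 and 481 TPM in vehicle LFD males, with overlap. It was at 495 to 870 TPM in vehicle HFD males and 458 to 682 TPM in exposed LFD males, and its departure was -1.04 with all libraries (adjusted p = 0.0882) and -1.18 without the 3 (adjusted p = 0.00705).

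Cxcl14, a chemokine gene, and Arhgap10, a GTPase-activating protein gene, had departures of 1.44 and 1.00 with all libraries (limma adjusted p = 0.0532 each) and 1.46 and 0.94 without the 3 (adjusted p = 0.0403 and 0.0415). Plet1 (1.21), Oat, ornithine aminotransferase (-1.28), and Ces1b, a carboxylesterase gene (-0.88), were also called without the 3. Tpm1, a tropomyosin gene expressed in muscle, was at 367 TPM in replicate 6 of the exposed HFD males, and its departure was 0.86 without the 3 (adjusted p = 0.0454) and 1.5 with them (adjusted p = 0.549). The 3 do not include replicates 4 and 5 of the vehicle LFD males, which also held muscle transcripts. These replicates and replicate 6 of the exposed HFD males were left out together in a set chosen after seeing the data. There Prss8 and Cyp2c29 were called (limma adjusted p = 0.00845 each), while Cxcl14, Arhgap10, Plet1, Oat, Ces1b and Tpm1 were not. Leaving out replicate 2 of the exposed HFD males called 9 departures, replicate 4 of that group 2, replicate 6 of that group 10, replicate 4 of the vehicle LFD males 9, and replicate 4 of the vehicle HFD males or replicate 2 of the vehicle LFD males 4 each.

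Females gave a comparison in other libraries, exposed HFD females against vehicle LFD females, each with 6. There 2791 genes were higher (17.6%) and 1769 lower (11.2%), 28.8% in all. Of the 6341 male and 4560 female calls 2538 were shared, which is 40.0% of the male and 55.7% of the female calls, and 2229 of the shared ones had the same direction. The difference of the joint effects between the sexes was itself called for 3157 genes (20.0%), 2365 with a higher change in males (14.9%) and 792 with a lower one (5.01%). With scaling these were 1247 (7.88%) and 1441 (9.11%), 17.0% in all. Cidea changed by 5.68 in males and -0.18 in females, a difference of 5.86 (SE 0.76, limma adjusted p = 4.14e-07). Cidec changed by 4.77 in males and 0.89 in females (difference 3.88, SE 0.54, adjusted p = 1.23e-06). Cdkn1a changed in opposite directions: exposed HFD females were at 6.41, 8.47 and 12.0 TPM against 21.4, 59.0 and 100 TPM in vehicle LFD females, a change of -2.58, and the difference from males was 4.75 (SE 0.46, adjusted p = 1.91e-09).

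For several of these genes the LFD levels also differed between the sexes. Cyp2b9 was at 597 to 816 TPM in exposed HFD females and 499 to 664 TPM in vehicle LFD females (0.28, against 5.73 in males), and Cyp4a14 was at 801 to 1250 TPM in exposed HFD females and 700 to 2040 TPM in vehicle LFD females (-0.34, against 4.10 in males). Hsd3b5 was at 0 to 1.13 TPM in exposed HFD females and 2.70 to 17.4 TPM in vehicle LFD females, a change of -2.07, and the difference from males was -4.55 (SE 0.78, limma adjusted p = 4.34e-05). Mup17 and Mup16 rose in females by 2.41 and 1.38 and changed by -2.13 and -2.98 in males. Male-biased genes as a list had 5 of 30 lower and 7 higher in females, and stellate cell genes 4 of 30 higher and 5 lower. These counts are near the shares over all genes in females, 17.6% higher and 11.2% lower. Cholesterol synthesis genes fell in both sexes, 20 of 24 in each.

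**Figure D5:**
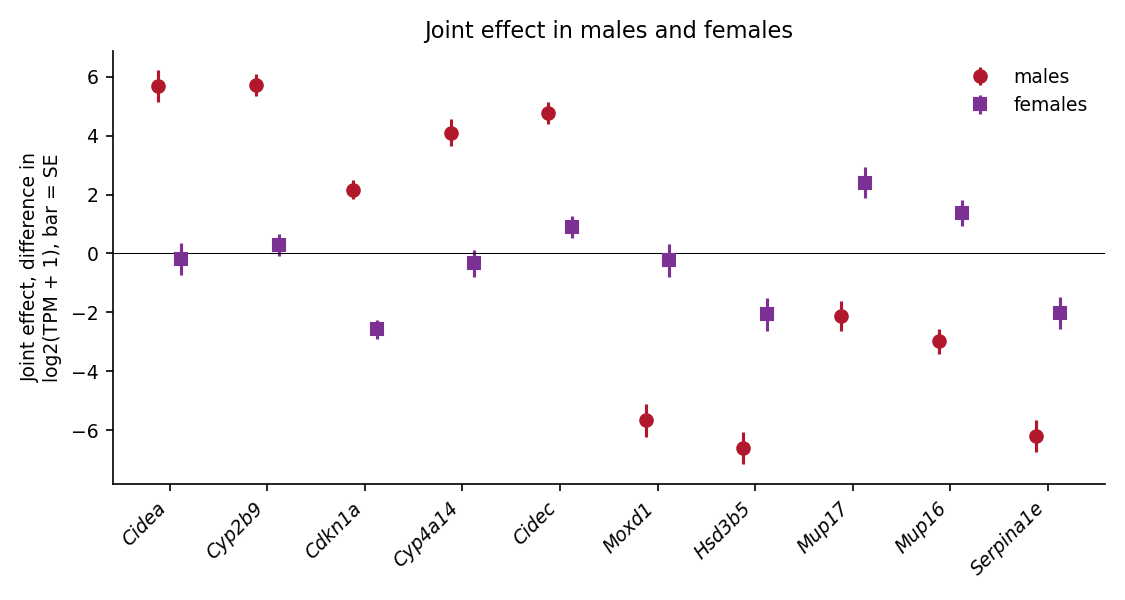
Joint effect of diet and mixture, as a difference in log2(TPM + 1) with 1 SE, in males and females for the 10 genes named for the largest difference between the sexes. Cidea, Cyp2b9, Cidec and Cyp4a14 lie at 4.10 to 5.73 in males and at -0.34 to 0.89 in females, and Cdkn1a, Mup17 and Mup16 have opposite signs in the sexes.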

How the data were processed

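Liver RNA of 48 mice in 8 groups of 6 was sequenced. Polyadenylated RNA was extracted with a column kit and libraries came from a commercial provider, per the labels' protocols. The authors deposited 1 table of TPM values for 49315 genes, and each library sums to 1000000, per the file headers and values. The submitters' processing notes name FastQC, Trimmomatic 0.36, STAR 2.5.2b, DESeq2 and GRCm38, with no role or order. The table holds no counts, so depth is unknown and no count test was run. Groups were taken from the sample titles.

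Genes at 1 TPM or more in at least 6 libraries (15820) were tested on the log2(TPM + 1) scale, using limma 3.58.1 under R 4.3.3. The model held 8 group means over 48 libraries (40 residual degrees of freedom) with a mean-variance trend, and p-values were Benjamini-Hochberg adjusted over all genes tested, with a threshold of 0.05. A fold on this scale understates changes of low genes. The departure is the joint effect minus both single effects. The fit was tested on simulated data. Alternatives were a trimmed-mean scaling (trimming 30% of log ratios and 5% of abundance), a pseudocount of 0.1, no filter, only the groups compared, male libraries only, a replicate block, each male library left out in turn, and 3 libraries with muscle transcripts left out. One further alternative, without the 3 libraries of the joint comparison richest in muscle transcripts, was chosen after seeing the data.

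The groups, gene lists and rules were chosen with earlier results of these data known. Named genes were the 12 largest rises and 12 largest falls called with at least 5 TPM in the higher group, all AhR targets, the 4 members of each other list with the smallest p, called departures (also without the 3 libraries with muscle transcripts), and the 5 largest sex differences each way. Each of these rises and falls also had to stay called without replicate 6 of the exposed HFD males. Every exposed HFD library had to lie beyond the vehicle LFD mean in the direction of change. Defining cell markers were named besides, and some genes that met the rule are not reported here. Promoter windows and motif counts came from RefSeq on GRCm38.p6, and gene coordinates from GENCODE M21.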

Additional observations from a re-analysis of the deposited data

Results flagged for a closer look

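Within single groups of 6, 1 library stood apart from the other 5 in 10 of 208 groups examined (4.81%), and chance gives about 1 in 20. In exposed HFD males, replicate 6 was lowest for Cidec (81.3 TPM) and Ephx1 (526 TPM) and highest for Pcp4l1 (28.6 TPM) and Tpm1 (367 TPM). Replicate 2 of that group was lowest for Cyp4a14 (98.5 TPM) and highest for Selenbp2 (67.4 TPM), and replicate 4 was lowest for Ugt1a6a (10.8 TPM). In vehicle LFD males, replicate 1 was highest for the lipogenic regulator gene Mlxipl (235 TPM) and for Tm7sf2 (103 TPM), and replicate 3 was highest for Slc46a3 (63.7 TPM).

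The joint effect differed between males and females, by a test of the difference in limma, in the 10 genes named for it. These genes were chosen among those called by this same test, so that they pass it was fixed by the choice. The difference of log2 changes, males minus females, was 5.86 for Cidea, 5.45 for Cyp2b9, 4.75 for Cdkn1a, 4.44 for Cyp4a14 and 3.88 for Cidec. It was -5.44 for Moxd1, -4.55 for Hsd3b5, -4.54 for Mup17, -4.36 for Mup16 and -4.17 for Serpina1e.

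The mixture effect differed between the diets for Cyp1a1, by -4.08 on the log2 scale (HFD minus LFD), which is the departure given for this gene.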

How the results depend on the processing

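The joint count of 6341 genes stayed within 1.5 times under every alternative run, at 5782 to 6348 with a male library left out, and so did the counts for the diet alone and the sex difference. The mixture alone called 6 genes, 3 with only the groups compared and 4 to 12 with a library left out, the highest without replicate 2 of the vehicle LFD males. The mixture on the HFD called 15 genes, 6 with male libraries only, 1 with only the groups compared, 47 without the 3 libraries with muscle transcripts, 34 without the 3 richest in them in the joint comparison (chosen after seeing the data) and 5 to 61 with a library left out. The departure called 1 gene, 2 with no filter, 12 and 6 without these sets of 3, and 1 to 10 with a library left out. Replicate numbers correlated at -0.124 to 0.203 over 36 pairs, 5 of them over 0.1, and only name samples. With the replicate block the departure called 4 genes, Cxcl14 (adjusted p = 0.00987) and Arhgap10 (adjusted p = 0.0165) among them, and the joint effect 6451.

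Changes near 0 turned sign: Lman2l to -0.15 with scaling, -0.02 without the 3 libraries with muscle transcripts and -0.03 to 0.08 with a library left out, and Xdh to -0.17 with scaling and -0.04 to 0.09 with a library left out. Slc46a3 and Ugt1a6a went to -0.02 with scaling. With a library left out, the departure of Cyp1a2 ran from -0.01 to 0.17 and that of Hsd3b5 from -0.91 to 0.24. The call of Ugt1a7c was lost under 4 alternatives. The cause was not tested.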

Other observations

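Zonation and clock genes were measured beside the lists above. Of 23 periportal hepatocyte genes 13 fell and 4 rose in the joint comparison (median -0.43), and of 24 pericentral genes 4 fell and 8 rose (median 0.16), or 7 and 6 with scaling. Of 32 interferon response genes 9 rose and 4 fell in males, or 5 and 5 with scaling, where 32.4% of all genes rose and 7.71% fell. In females 15 rose and 1 fell, where 17.6% of all genes rose and 11.2% fell, and the difference between the sexes was not tested for the list. Of 7 neutrophil and monocyte genes 4 rose and 0 fell (median 0.64).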
